A study of Oryza sativa Japonica Group with 20 samples.

Results

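PLT5 binding was set beside the histone mark H3K4me3 in wild-type (WT) root tips of the rice cultivar ZH11. The maps come from CUT&Tag, in which a transposase tethered to an antibody inserts adapters around the antibody's target, on nuclei from root tips of about 0.8 cm, taken 7 days after germination from untreated seedlings. Of the 20 samples of the series, 4 make up the comparison, 2 PLT5 libraries and 2 H3K4me3 libraries. EMF2b and H3K27me3 in WT and H3K4me3 in plt345, a triple mutant at PLT3, PLT4 and PLT5, served as further readouts with 2 libraries each. The labels name no transgene in these plants, and give no maker for the PLT5 antibody. Libraries of IgG and of PLT5 in plt345 were not analysed here, so the PLT5 map has no control for signal that does not depend on PLT5. A site was a stretch of merged peaks touched by both libraries of an antibody, which gave 8781 PLT5 sites and 23543 H3K4me3 sites. Another 5651 merged PLT5 peaks and 3135 merged H3K4me3 peaks were found in 1 library only.

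PLT5 is a PLETHORA protein, one of the AP2-type transcription factors that keep cells of the root meristem dividing and undifferentiated, best known from Arabidopsis. H3K4me3, trimethylation of lysine 4 of histone H3, is placed by Trithorax-type methyltransferases on the nucleosomes at the start of genes that are transcribed or poised. EMF2b is a subunit of Polycomb repressive complex PRC2, which places the repressive mark H3K27me3. The comparison asks where PLT5 binds relative to the mark and how H3K4me3 sites that hold PLT5 differ from the rest.

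The PLT5 lists held 12590 and 10822 peaks with median widths of 506 and 487 bp, and the H3K4me3 lists 25762 and 25165 peaks with median widths of 856 and 869 bp. The 2 PLT5 libraries differed more than the H3K4me3 ones: 70.4% of the peaks of PLT5 replicate 1 and 82.2% of those of replicate 2 overlapped a peak of the other, against 92.9% and 94.8% for H3K4me3. With no read counts in the lists, depth is unknown. Strength is given as the −log10 q of a peak, where q is the authors' p-value for enrichment after correction for multiple testing, and as the authors' fold enrichment of the peak. Sites of 1 library share their source and are not replicates, so shares carry 95% Wilson intervals, which cover counting error only, and no p-value was computed across sites. Positions are those of the lists, on an assembly that the sources used here do not give, and no site was assigned to a gene.

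Most PLT5 sites lay on H3K4me3. Of the 8781 sites, 5849 (66.6%, interval 65.6 to 67.6%) overlapped an H3K4me3 site by at least 1 bp, 549 (6.25%, 5.76 to 6.78%) lay next to one, at a gap under 1 kb, and 2383 (27.1%, 26.2 to 28.1%) lay farther away. The peaks of PLT5 replicate 1 were on H3K4me3 at 60.4% and those of replicate 2 at 61.5%. PLT5 peaks found in 1 library only were on H3K4me3 less often, at 45.5% (44.2 to 46.8%). Few sites were close to the limit between on and next, since 20 sites overlapped H3K4me3 by 50 bp or less and 16 missed it by under 50 bp. At the outer limit, 42 had a gap less than 50 bp short of 1 kb and 31 a gap less than 50 bp beyond it. Away sites were at a median of 3723 bp from the nearest H3K4me3 site (quartiles 2080 and 7709 bp), and 413 of them (17.3%) carried an H3K4me3 peak of 1 library. Over the 12 numbered chromosomes the share on H3K4me3 lay between 62.6% on chromosome 4 and 70.1% on chromosome 7.

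PLT5 sites on H3K4me3 were the stronger ones. Their median −log10 q was 11.6 in PLT5 replicate 1 and 10.4 in replicate 2, against 9.18 and 8.24 at sites next to H3K4me3 and 9.35 and 8.54 at sites away from it. The median fold enrichment was 4.51 and 4.68 on H3K4me3, 3.65 and 3.83 next to it and 4.13 and 4.29 away from it. Sites next to H3K4me3 therefore had the lowest fold in both libraries. They rarely sat in a gap between marked regions: 10 of the 549 had H3K4me3 within 1 kb on both sides.

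The share on H3K4me3 rose with each decile of PLT5 −log10 q. It was 48.6% (45.3 to 51.9%) in the lowest decile, which ran from 3.99 to 6.78, 67.0% in the fifth and 87.4% (85.0 to 89.4%) in the highest, which began at 18.5. Away sites were 40.0% of the lowest decile and 10.8% of the highest, and next sites 11.4% and 1.82%. When each library was ranked by its own values the share on H3K4me3 was 40.8% in the lowest and 86.7% in the highest decile of PLT5 replicate 1, and 42.8% and 85.9% in those of replicate 2. In both libraries the end deciles were thus much farther apart than the libraries were from each other.

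**Figure D1:**
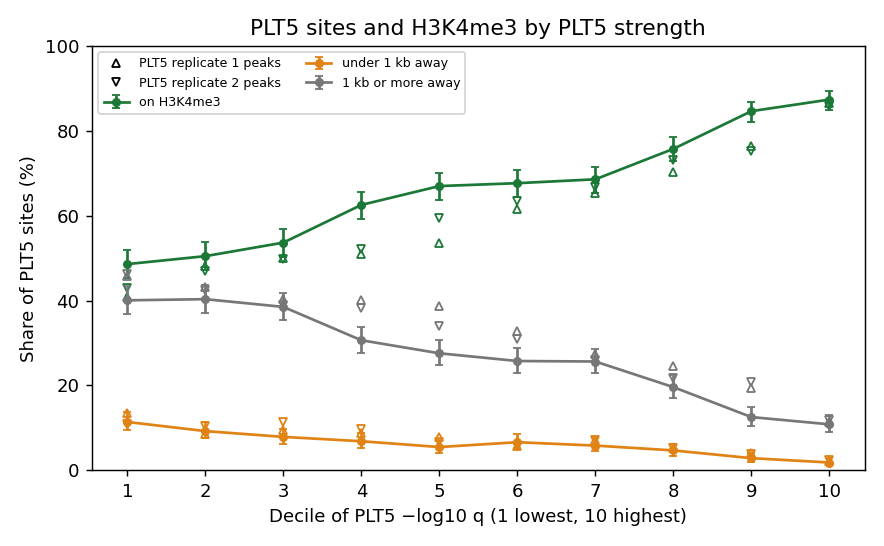
The share of PLT5 sites (y axis, %) on H3K4me3, under 1 kb from it and farther away is plotted by decile of PLT5 −log10 q (x axis). Lines and bars give sites of both libraries with 95% Wilson intervals and open triangles (up for replicate 1, down for replicate 2) the peaks of each PLT5 library in its own deciles; the share on H3K4me3 goes up from 48.6% to 87.4% while the away share goes down from 40.0% to 10.8%.

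Stronger PLT5 sites were also wider, with a median of 563 bp in the lowest and 748.5 bp in the highest decile, which gives them more room to touch another peak. The trend was there when a site was placed by its summit alone, the base where the authors' caller put the maximum. The summit lay inside H3K4me3 at 41.9% and 41.5% of the lowest decile in the 2 libraries, and at 87.0% of the highest in both. With PLT5 sites split by width into 3 equal sets, the narrowest, up to 560 bp, were ranked on their own, and the share on H3K4me3 was 46.4% (40.8 to 52.1%) in the lowest and 72.6% (67.2 to 77.4%) in the highest decile of that set. The increase also appeared at sites without H3K27me3, from 51.7% to 86.1% between the end deciles. At sites without EMF2b it was 52.5% in the lowest and 86.0% in the ninth decile, but 64.3% (45.8 to 79.3%) in the highest, which held 28 such sites.

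The 3 strongest PLT5 sites on H3K4me3 sat on narrow patches of the mark. The first, on chromosome 12 from 13349157 to 13349936, had a PLT5 −log10 q of 206 and 190, and the H3K4me3 site under it was 607 bp wide. Its PLT5 summit fell 0 to 10 bp from the H3K4me3 summits in the 4 pairings of libraries. The second, on chromosome 8 from 12797706 to 12798237, had 195 and 188 over an H3K4me3 site of 391 bp, with summits 0 to 48 bp apart. The third, on chromosome 10 from 14535072 to 14535781, had 196 and 186 over 571 bp, with summits 4 to 60 bp apart. At all 3 of these sites the EMF2b summit also lay within 16 bp of the PLT5 summit of the same replicate number, with an EMF2b −log10 q of 136 to 168. All 3 also carried H3K27me3, with a −log10 q of 52.2 and 56.5 at the first, the highest values of both H3K27me3 lists, 38.8 and 38.7 at the second and 44.4 and 45.8 at the third. The H3K4me3 −log10 q was 76.3 and 68.6 at the first, 29.7 and 36.2 at the second and 54.4 and 59.99 at the third. The highest decile of H3K4me3 −log10 q began at 42.8, so the second site was below it. These 3 sites were picked among those on H3K4me3, so the presence of that mark was set by the choice. They had high signal for PLT5, EMF2b and H3K27me3 as well. Without IgG libraries, signal that does not depend on the antibody cannot be told apart here.

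Strong PLT5 sites away from H3K4me3 existed as well. The site on chromosome 12 from 20486705 to 20487183 had a PLT5 −log10 q of 137 and 128, 10991 bp from the nearest H3K4me3 site. The site on chromosome 12 from 13342225 to 13342720 had 141 and 114 and lay 6504 bp from the narrow H3K4me3 patch of the strongest site. On chromosome 4 the site from 16289059 to 16289498 had 115 and 105, at 82470 bp from H3K4me3. All 3 carried EMF2b and H3K27me3 in both WT libraries. The strongest sites next to H3K4me3 were weaker than these, at 45.9 and 53.1 on chromosome 1 from 39122230 to 39122589, 51.1 and 39.7 on chromosome 3 from 27087777 to 27088222, and 49.5 and 39.9 on chromosome 10 from 12889152 to 12889563.

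Taken in bp over H3K4me3 sites of all widths, PLT5 summits mostly lay a short way inside the edge. Of the 5849 sites on H3K4me3, the summit itself was inside the mark at 93.7% in PLT5 replicate 1 and 93.2% in replicate 2. These summits were at a median of 236 and 235 bp from the nearest edge, with quartiles of 156 and 359 bp in replicate 1 and 156 and 353 bp in replicate 2. The bin from 100 bp to under 250 bp held 39.8% and 39.6% of the sites on H3K4me3, that from 250 bp to under 500 bp 32.6% and 32.2%, and that under 100 bp 10.3% and 10.96%. PLT5 sites usually straddled one border: 62.9% (61.7 to 64.1%) of them ran past a single edge of the H3K4me3 site, 26.8% lay wholly inside it and 10.7% held it whole, with sites that share an end with H3K4me3 sometimes counted under more than one heading.

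Counts at a given distance depend on how much sequence lies there, so summits were also expressed per Mb of sequence at each distance from the nearest edge. The density was highest 200 to 300 bp inside the edge, at 355 and 368 summits per Mb in the 2 PLT5 libraries. It pools narrow sites, where that distance is near the middle, with wide ones, where it is near a border. At 0 to 100 bp inside it was 127 and 136 per Mb, and 27.05 per Mb in both libraries at 0 to 100 bp outside. The lowest density within 1 kb outside was 9.09 per Mb in replicate 1 and 10.7 per Mb in replicate 2, both at 400 to 500 bp. At 1000 to 2000 bp outside it was 15.9 and 16.1 per Mb, and beyond 5 kb it was 5.27 and 5.26 per Mb. Over all H3K4me3 sequence, 25.5 Mb, the density was 215 and 214 per Mb, against 8.67 and 8.66 per Mb beyond 1 kb.

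**Figure D2:**
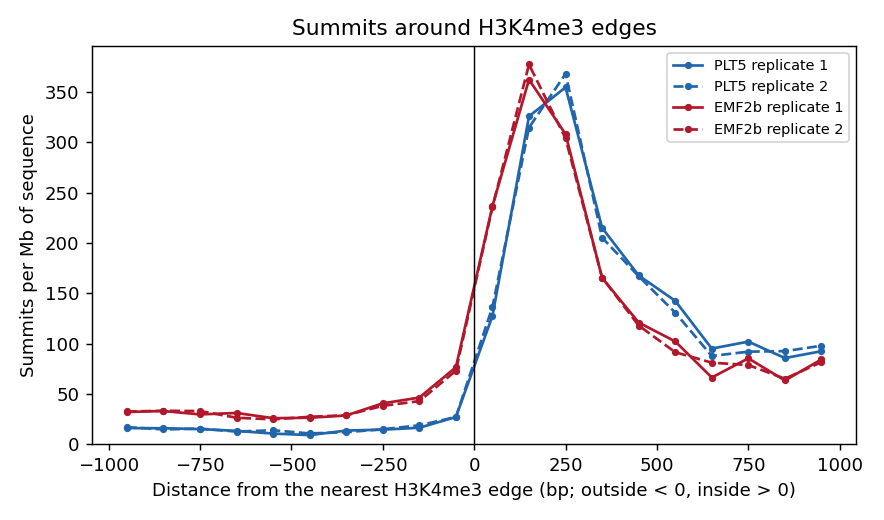
Summits per Mb of sequence (y axis) are plotted by distance from the nearest H3K4me3 edge in 100 bp bins (x axis, bp, outside below 0 and inside above 0), for both PLT5 and both EMF2b libraries, 1 line each. PLT5 peaks at 200 to 300 bp inside the edge (355 and 368 per Mb) and EMF2b at 100 to 200 bp (362 and 377 per Mb), and EMF2b is the higher of the pair outside the edge. Densities are not scaled for the larger number of EMF2b sites.

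The median distance to the edge was longer in wider H3K4me3 sites, but as a share of the width PLT5 sat nearer the middle of narrow sites and nearer a border of wide ones. In H3K4me3 sites under 600 bp the summits were at a median of 162 and 165 bp from the edge. In sites of 1000 bp to under 1500 bp the median was 267.5 and 257 bp, and in sites of 2000 bp or more 300 and 296 bp. Position was also taken as a share of width, in 5 bins from the edge to the midpoint, where an even spread gives equal shares. Over all widths these bins held 17.1%, 26.6%, 20.8%, 18.0% and 17.6% of the inside summits in replicate 1. In replicate 2 they held 17.9%, 26.1%, 21.1%, 17.2% and 17.7%. In sites under 600 bp the innermost bin held 35.0% and 38.7% of the summits and the outermost 4.86% and 5.50%. In sites of 600 bp to under 1000 bp the innermost held 25.3% and 24.4% and the outermost 7.40% and 8.10%. In sites of 2000 bp or more the order was the opposite, with 9.38% and 8.91% in the innermost and 37.9% and 40.0% in the outermost bin.

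PLT5 and H3K4me3 summits coincided at some sites and were far apart at others. The median distance between them was 216 to 224 bp in the 4 pairings of libraries, with lower quartiles of 60 to 65 bp and upper quartiles of 466 to 476 bp. For comparison, summits of the same site in the 2 replicates were at a median of 62 bp from each other for PLT5 and 48 bp for H3K4me3. Under 100 bp separated the summits at 32.2 to 33.8% of the sites on H3K4me3, and over 500 bp at 22.4 to 23.1%.

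Coincidence of summits went with PLT5 strength. In the lowest decile of PLT5 −log10 q the median distance was 308 bp (281 to 338 bp over the 4 pairings) and 20.8% of the summits were within 100 bp. In the highest decile the median was 93.5 bp (93 to 94 bp) and 51.5% were within 100 bp. The H3K4me3 sites under these deciles were of like width, with medians of 1190 and 1257 bp, but those under the highest were stronger, at a median −log10 q of 31.6 against 20.8 under the lowest. Weak PLT5 sites also have less exact summits: the 2 replicates were at a median of 103 bp from each other in the lowest and 30 bp in the highest decile. The part of this error in the trend was not tested.

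**Figure D3:**
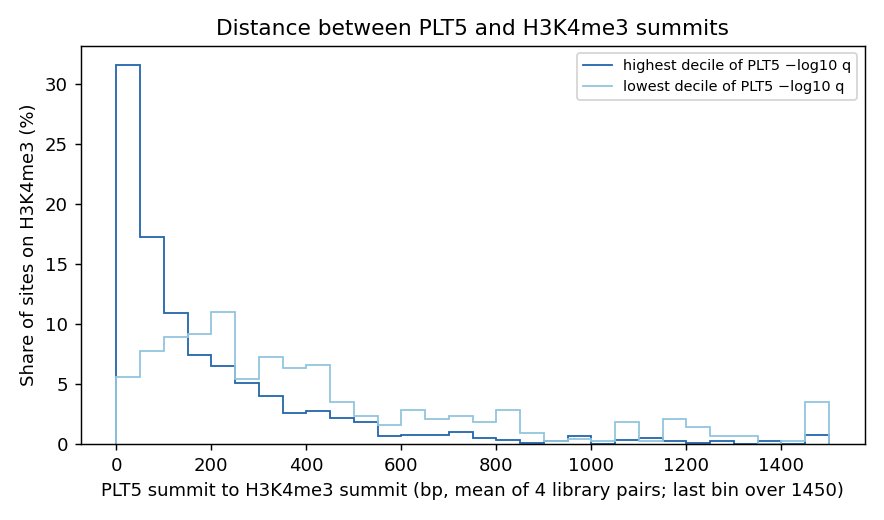
The distance between PLT5 and H3K4me3 summits (x axis, bp, mean of the 4 pairings of libraries, 50 bp bins) is plotted as the share of PLT5 sites on H3K4me3 (y axis, %) for the highest and the lowest decile of PLT5 −log10 q. The first bin holds 31.6% of the highest decile and 5.62% of the lowest, whose distances spread out beyond 500 bp.

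Distances between summits were shorter on narrower H3K4me3 sites, whose width also limits how far apart a pair of summits inside them can be. In the narrowest decile of H3K4me3 width, up to 509 bp, PLT5 and H3K4me3 summits were at a median of 55.2 bp (54 to 57 bp over the 4 pairings), near the distance between replicates. In the widest decile, from 1793 bp, the median was 459 bp (453.5 to 469 bp). Sites with a mean summit distance under 50 bp had a median PLT5 −log10 q of 14.1 and lay on H3K4me3 of a median width of 735 bp, while those at 800 bp or more had 10.0 and 2069 bp. H3K27me3 was present at 53.3% (49.9 to 56.6%) of the first and 41.3% (37.6 to 45.1%) of the second. EMF2b was found at 81.7% (79.0 to 84.2%) and 77.9% (74.6 to 80.9%) of them. Where EMF2b was present, its summit was within 100 bp of the PLT5 summit at 82.4% of the sites with H3K4me3 summits under 50 bp away and at 39.7% of those at 800 bp or more.

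The lists give no strand, but the H3K4me3 summit itself marks a side. PLT5 summits inside H3K4me3 lay across the midpoint from the H3K4me3 summit at 34.7 to 35.0% in the 4 pairings of libraries (intervals from 33.4 to 36.2%), so the larger part shared its side. Where both were on the same side and over 100 bp apart, the PLT5 summit was the one nearer the edge at 89.3 to 90.2% of sites (n = 1803 to 1854). In H3K4me3 sites of 1500 bp to under 2000 bp this share was 93.7 to 94.1%, with the PLT5 summit at a median of 279 and 271 bp from the edge and the H3K4me3 summit at 546 to 560 bp. The share was 88.7 to 89.9% in sites of 2000 bp or more and 69.8 to 86.8% in those under 600 bp (n = 38 to 56). These shares cover only pairs of summits on one side and over 100 bp apart, not all PLT5 summits inside H3K4me3. H3K4me3 summits tended to lie nearer the midpoint than the edge, which leaves less room for a PLT5 summit on their inner side. The share that an even spread would give was not computed, so these shares have no reference value.

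An oriented view counted these summits again by side, and is not separate support. At 18281 H3K4me3 sites both libraries placed the H3K4me3 summit on the same side of the midpoint. On that side lay 2935 PLT5 summits of replicate 1 and 2922 of replicate 2, and on the other 1257 and 1262. In sites of 1500 bp to under 2000 bp, cut into 10 equal bins, the fullest was the ninth counted towards the H3K4me3 summit's side, with 296 and 314 summits, against 72 and 71 in its mirror image. The flanks up to 500 bp outside these sites held 51 and 39 PLT5 summits on the H3K4me3 summit's side, against 21 and 26 on the other. This width class was the most one-sided, with 25.6% and 24.3% of inside summits on the other side. That share was 32.1% and 31.0% in sites of 2000 bp or more, and 34.6% and 36.3% in those under 600 bp.

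EMF2b, the other factor mapped in WT, served to show which features of position are shared. Of 12612 EMF2b sites 51.9% (51.0 to 52.8%) were on H3K4me3, against 66.6% of PLT5 sites. By peaks of single libraries the share was 61.0 ± 0.820% for PLT5 and 48.2 ± 0.507% for EMF2b (SD, n = 2 each). Among sites on H3K4me3, the median distance of inside summits to the edge was 235.5 ± 0.707 bp for PLT5 and 195 ± 1.41 bp for EMF2b (SD, 2 libraries each). PLT5 summits were nearer the H3K4me3 summit, at a median of 219.5 ± 4.95 bp, than EMF2b summits, at 326 ± 1.41 bp, and 33.0 ± 0.731% of PLT5 and 24.4 ± 0.205% of EMF2b summits were within 100 bp of it. In each of these 4 measures both PLT5 libraries lay on the same side of both EMF2b libraries. The two-sided exact permutation test gave p = 0.333 for each, also after Benjamini-Hochberg adjustment over the 4. With 2 libraries a side no smaller p exists, so the test cannot pass any usual threshold. All measures but the share of peaks on H3K4me3 took both libraries' values from the same merged sites. Their SDs therefore leave out differences in which sites each library found, and the values are not fully independent units. On the H3K4me3 summit's side and over 100 bp from it, EMF2b summits were likewise the ones nearer the edge at 92.3 to 92.6%, again without a reference value. The share of EMF2b sites on H3K4me3 also climbed by decile of EMF2b −log10 q, from 33.2% to 79.5%. At 0 to 100 bp outside the edge EMF2b had 76.5 and 73.0 summits per Mb, against 27.05 per Mb for PLT5 in both libraries. These densities are not scaled for the number of sites, 12612 against 8781. EMF2b was also the higher beyond 5 kb, at 11.3 per Mb in both libraries against 5.27 and 5.26 for PLT5. The difference was thus present far from the edge too, but in proportion it was larger at 0 to 100 bp outside it. Of the sites on H3K4me3, the summit lay outside the mark at 16.0% and 15.6% for EMF2b, against 6.33% and 6.77% for PLT5. PLT5 and EMF2b sites overlap widely, so the antibodies do not give independent sets of sites.

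H3K4me3 sites with PLT5 were wider than those without. PLT5 touched 5736 of the 23543 H3K4me3 sites, and their median width was 1219.5 bp (quartiles 758 and 1725 bp), against 947 bp (671 and 1268 bp) at the 17807 without PLT5, a ratio of 1.29. In H3K4me3 replicate 1 the medians were 1142 bp with PLT5 and 879 bp without, and in replicate 2 1142 and 876 bp. Sites of 2000 bp or more made up 14.7% of those with PLT5 and 3.36% of those without. Over all sites the mark was wider with PLT5 but not of higher median fold. The fold was 3.83 with PLT5 and 3.92 without in replicate 1, and 3.85 and 3.93 in replicate 2. The median −log10 q was higher with PLT5, at 23.1 against 21.2 in replicate 1 and 22.9 against 20.7 in replicate 2. At H3K4me3 sites with H3K27me3 the median fold in the 2 libraries was 3.83 and 3.85 with PLT5, against 3.75 and 3.76 without. At those without H3K27me3 it was 3.83 and 3.86 with PLT5, against 3.96 and 3.97 without. In bins of 100 bp, the share of sites with PLT5 was highest in the bin from 600 bp, at 7.17%, and stayed between 4.83% and 5.18% in the bins from 1000 to 1600 bp. Without PLT5 the share was 7.37% in the bin from 1100 bp and 5.35% in that from 1300 bp, so the widths with PLT5 carried a long shoulder that the others lacked.

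**Figure D4:**
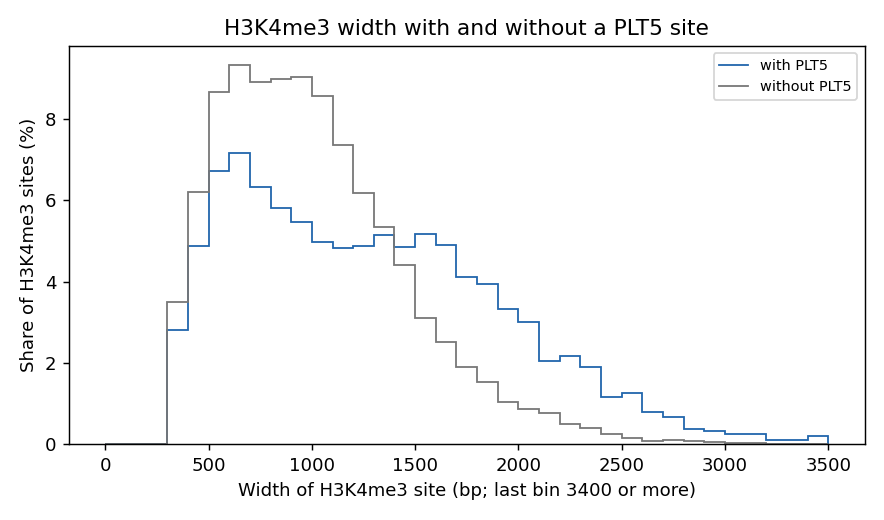
The width of H3K4me3 sites (x axis, bp, 100 bp bins) is plotted as the share of sites (y axis, %) for the 5736 sites with PLT5 and the 17807 without. Medians are 1219.5 bp with PLT5 and 947 bp without, and 14.7% against 3.36% reach 2000 bp.

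H3K4me3 sites with a PLT5 peak in 1 library only were intermediate, at a median of 1148 bp, and those with none in either library had 928 bp. A site that PLT5 did not touch but approached to under 1 kb had a median width of 902 bp and a median fold of 3.15, against 3.99 at sites with PLT5 at 1 kb or more. There were 143 H3K4me3 sites with 2 PLT5 sites, with a median width of 2289 bp, and 1 with 3. By decile of their strongest PLT5 site, bound H3K4me3 sites had median widths of 1114 to 1281 bp, with the lowest value in the lowest decile and 1257 bp in the highest.

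The difference in width was small at weak H3K4me3 and larger at strong. H3K4me3 sites were split into deciles of their own −log10 q. In the lowest decile the median width was 611 bp with PLT5 and 581 bp without, a ratio of 1.05, and 1.03 in either library. The ratio was 1.23 in the fourth decile and 1.45 in the seventh, where widths were 1588 bp with PLT5 and 1096.5 bp without. In the highest decile it was 1.26. PLT5 was found on 23.0% (21.3 to 24.7%) of the H3K4me3 sites of the lowest strength decile and 29.1% (27.3 to 31.0%) of the highest. Strength thus separated the sites with and without PLT5 less than width did.

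The share of H3K4me3 sites with PLT5 dipped towards the middle widths and was highest at the widest. It was 20.3% (18.8 to 22.0%) in the narrowest decile, 15.9% (14.5 to 17.4%) in the sixth, 23.9% in the eighth, 36.7% in the ninth and 54.3% (52.3 to 56.3%) in the widest. By single PLT5 libraries the narrowest decile had 25.5% and 23.6% and the widest 63.9% and 58.2%. A wide site has more room for PLT5, so sites were also counted per length of H3K4me3. There were 4.77 PLT5 sites per 10 kb in the narrowest decile, 1.51 in the sixth and 2.73 in the widest. Per length the narrowest sites thus came first, and the increase from the sixth to the widest decile was still present.

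The share with PLT5 was higher at H3K4me3 sites with H3K27me3 in every width decile, and climbed at the widest sites with and without that mark. Among H3K4me3 sites that also carried H3K27me3 in both WT libraries, PLT5 was present at 47.2% (43.0 to 51.5%) of the narrowest decile, 48.4% (43.1 to 53.7%) of the sixth and 76.6% (73.5 to 79.5%) of the widest. Without H3K27me3 the shares were 12.6% (11.2 to 14.2%), 10.4% (9.12 to 11.8%) and 43.6% (41.2 to 46.1%). The ratio of median width with PLT5 to that without was 1.24 at H3K4me3 sites with H3K27me3 and 1.34 at those without it. Without H3K27me3 the median was 1276 bp with PLT5 and 949 bp without. H3K4me3 sites with EMF2b but no PLT5 had a median of 1174 bp, and those with PLT5 but no EMF2b 1163 bp, both above the 931 bp of sites with neither.

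**Figure D5:**
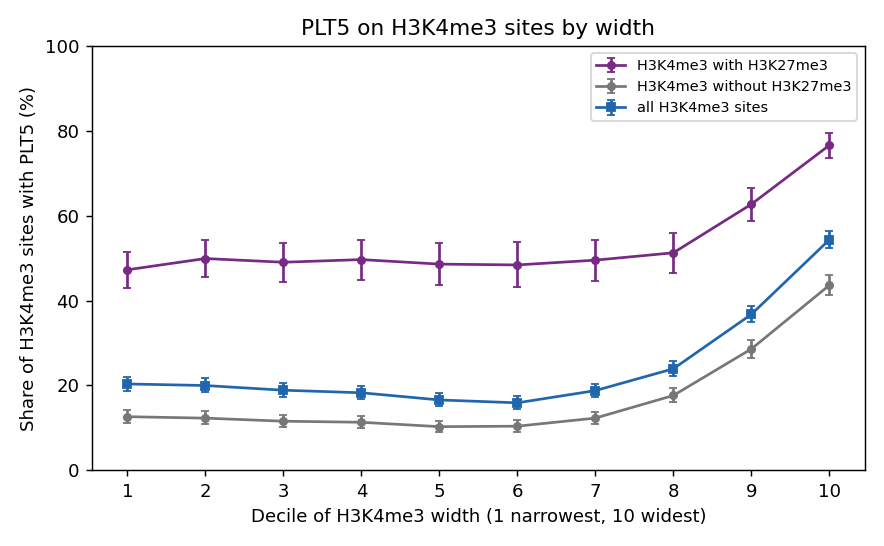
The share of H3K4me3 sites that a PLT5 site touches (y axis, %, with 95% Wilson intervals) is plotted by decile of H3K4me3 width (x axis) for sites with H3K27me3, without H3K27me3 and for all. The line for all sites dips to 15.9% in the sixth decile, and the 3 lines climb to 76.6%, 43.6% and 54.3% in the widest.

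The widest H3K4me3 site with PLT5 lay on chromosome 9 from 4705594 to 4710382, 4789 bp in the merged lists, and a single PLT5 site of 5743 bp ran across all of it. PLT5 fold was low there, 2.26 and 1.95, against list medians of 4.14 and 4.39. The PLT5 summits of the 2 libraries lay far apart, at 4705947 and 4708674, and each H3K4me3 library had 2 peaks in the site. The second, on chromosome 1 from 10098779 to 10103189, was 4411 bp wide, and its PLT5 summit lay at 170 and 147 bp from an edge and 2504 to 2849 bp from the H3K4me3 summits. The third, on chromosome 12 from 8540548 to 8544481, was 3934 bp wide, with a PLT5 site of 4041 bp over it, also of low fold, 2.47 and 2.43. The widest site without PLT5 was shorter, 3556 bp on chromosome 2 from 26379399 to 26382954. The next were 3331 bp on chromosome 2 from 4182534 to 4185864 and 3328 bp on chromosome 2 from 24974172 to 24977499. None of these 3 carried H3K27me3 in both WT libraries.

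The H3K4me3 site with 3 PLT5 sites, on chromosome 9 from 15710716 to 15713091, was 2376 bp wide. The outer PLT5 sites had their summits 168 and 171 bp from one edge and 152 and 192 bp from the other, with −log10 q of 16.9 and 12.9, and 28.7 and 17.5. The third was weak, at 6.72 and 6.58, and lay 7 to 135 bp from the H3K4me3 summits. The outer sites carried EMF2b and the weak inner one did not. Of the widest H3K4me3 sites with 2 PLT5 sites, that on chromosome 8 from 7892193 to 7895867 held one PLT5 site at 124 and 118 bp from an edge and another at 1750 and 1754 bp, far inside. That on chromosome 5 from 19811150 to 19814802 held its PLT5 summits at 1396 and 1430 bp and at 534 and 506 bp from the edge, so neither of these sites had PLT5 near both borders.

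H3K27me3 and EMF2b were found in all 3 classes of PLT5 sites. H3K27me3 was present in both WT libraries at 45.5% (44.2 to 46.7%) of sites on H3K4me3, 38.6% (34.6 to 42.8%) of those next to it and 51.7% (49.7 to 53.7%) of those away. EMF2b was present at 77.7% (76.6 to 78.7%), 79.8% (76.2 to 82.9%) and 74.5% (72.7 to 76.2%). Among sites on H3K4me3 both increased with PLT5 strength: H3K27me3 was at 33.5% of the lowest and 69.4% of the highest decile, and EMF2b at 55.7% and 97.7%. Away sites went the same way, from 43.5% to 63.2% for H3K27me3 and from 62.2% to 90.5% for EMF2b.

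The H3K4me3 lists of the plt345 mutant give a readout that did not enter the choice of sites. PLT5 sites on WT H3K4me3 overlapped an H3K4me3 peak at 88.8% and 88.4% in the plt345 libraries, and 470 of the 5849 (8.04%) had none in either. The same share over all WT H3K4me3 sites was not computed, so the 8.04% has no reference value. Sites away from WT H3K4me3 had such a peak at 11.7% and 11.2%. By width, H3K4me3 sites of the narrowest decile overlapped a plt345 H3K4me3 peak at 63.9% in both libraries if PLT5 touched them, against 77.1% and 76.3% if not. In the fourth decile the shares were 84.0% and 82.6% with PLT5, against 95.5% and 95.2% without. In the widest decile they were 99.6% and 99.4%, against 99.3% in both libraries. In every decile below the widest the share with PLT5 was the lower one in both libraries, but by little at wide sites. The eighth decile had 97.3% and 97.9% with PLT5, against 98.8% and 99.1% without. The ninth was nearly equal, at 99.31% and 99.08% with PLT5, against 99.33% and 99.26% without. H3K4me3 sites with PLT5 carried H3K27me3 at 46.1%, those without at 12.1%. The contrast was not matched for H3K27me3 or for H3K4me3 strength, so a part of PLT5 in it was not tested. Mutant and WT lists were called separately, so differences in depth between the lists cannot be told apart from a change in the mark.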

How the data were processed

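The tools named, per the submitters' processing notes, are MACS2 2.2.7.1, Bowtie2 2.4.4, Trim Galore 0.6.6 and deepTools 3.5.0. The sources used here do not say what each did, nor give a control library, duplicate handling or a genome build. The authors deposited one peak list per library, not pooled. Each deposited list holds a fold enrichment (a ratio), a −log10 p and −log10 q, a score derived from them, and peak start, end and, in narrow lists, summit offset as other columns in bp. Sites, distances and shares were computed with Python 3.11.15, numpy, pandas and scipy, with deciles by rank of the mean over both libraries of the highest −log10 q of a site, and a summit taken from the strongest peak of each library. The scripts were tested on simulated lists. A PLT5 site was assigned to the H3K4me3 site it overlapped most.

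The members and lists were chosen with earlier results of these data known. Replicate numbers mark separate libraries; nothing states separate plants, so their spread may be technical. Alternatives left out each library, changed overlap, gap, threshold, site definition and ranking. Depth is unknown. Positions named are the 3 strongest PLT5 sites per class, the 3 widest H3K4me3 sites with and without PLT5 and the 3 with most PLT5 sites (ties by width). The plt345 lists of H3K27me3 and EMF2b were not used.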

Additional observations from a re-analysis of the deposited data

How the results depend on the processing

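Alternatives were run for the 10 shares, distances and ratios given here. In each that applied, the highest PLT5 decile stayed above the lowest and the widest H3K4me3 decile above the narrowest. The width ratio stayed above 1, and most PLT5 summits stayed on the H3K4me3 summit's side. The other shares and distances have no direction to keep. Most values moved by more than the spread between libraries. That spread was 0 bp for the edge distance, so any change counted as a move there. With 1 library left out at a time, the share of PLT5 sites on H3K4me3 was 60.4 to 69.6%, the away share 24.2 to 32.4%, and the share on H3K4me3 40.8 to 51.0% in the lowest and 85.9 to 88.8% in the highest PLT5 decile. In the same way the median distance of inside summits to the edge was 207 to 231 bp, that to the H3K4me3 summit 203 to 225.5 bp, the share across the midpoint 35.0 to 36.0%, the width ratio 1.28 to 1.30, and the share of H3K4me3 sites with PLT5 18.3 to 25.5% in the narrowest and 52.7 to 63.9% in the widest decile. Placed by its summit, a PLT5 site was on H3K4me3 in 62.3%, away in 30.1% and on it in 41.7% of the lowest decile, with 194 bp between summits. An overlap of at least 150 bp gave 46.8% in the lowest decile. A limit of 500 bp or 2000 bp for next gave 31.1% or 20.8% away. Without the weakest 25% of peaks of each list, on was 57.2%, away 37.4%, the lowest decile 36.5%, the highest 80.6%, the edge distance 256 bp, the summit distance 232 bp, the width ratio 1.33, and the narrowest and widest deciles 18.0% and 48.6%. With sites cut to the part covered by both libraries, on was 64.8%, away 28.6%, the lowest decile 44.6%, the edge distance 193.5 bp, the summit distance 209 bp and the width ratio 1.33. Ranking by fold gave 82.6% in the highest decile. In H3K4me3 sites of 1000 to 2000 bp with 1 PLT5 site the edge distance was 270 bp, the summit distance 328 bp and the share across the midpoint 31.2%. Within deciles of H3K4me3 −log10 q the width ratio was 1.27 and the widest decile 48.4%. Counting a PLT5 peak of either library gave a ratio of 1.29 and 29.1% and 67.6% of the narrowest and widest deciles. The cause of these shifts was not tested. No paired analysis was possible because these shares and medians come from no test across paired libraries, and replicate numbers of different antibodies only name libraries. The oriented counts, shares nearer the edge, densities, EMF2b comparison, H3K27me3 splits and plt345 readouts had no alternative. Peak lists without read counts set no limit on sites missed for lack of depth.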
